A study of Mus musculus with 20 samples.

Results

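The 9 genes described here encode the 5 kainate receptor subunits (*Grik1* to *Grik5*), the auxiliary subunits of kainate receptors (*Neto1* and *Neto2*) and a pair of secreted C1q-like proteins (*C1ql2* and *C1ql3*). They were taken from the 47729 genes of the count files by gene symbol alone, and each symbol matched 1 row. Counts came from hippocampus and cortex of 5 WT and 5 Ube3aOE pups of strain C57Bl/6J at postnatal day 7, with 1 library for each tissue of each mouse and so 20 libraries from 10 mice. The mice are numbered 1 to 5 (WT) and 6 to 10 (Ube3aOE). Ube3aOE mice carry a bacterial artificial chromosome with the whole *Ube3a* gene and its own flanking regulatory sequence, floxed and with a residual FRT site, beside the endogenous gene, and no Cre was part of the labelled groups. The labels name neither the transgenic line nor the number of copies of these animals, and the study's own RNA-Seq account is of mice with a 2-copy insertion. *Ube3a*, the transgene's product, was 64.7 ± 8.21 CPM in WT and 162 ± 24.9 CPM in Ube3aOE hippocampus, and 61.1 ± 5.71 and 152 ± 27.2 CPM in cortex (SD, n = 5 each), with no overlap between genotypes in either tissue. Levels below are counts scaled to library size (CPM) with trimmed mean of M values (TMM) factors, and a level set beside that of another gene is CPM per kb of annotated exon.

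Kainate receptors are glutamate-gated cation channels built from 4 subunits. GluK1 to GluK3 (*Grik1* to *Grik3*) form channels on their own, whereas the high-affinity subunits GluK4 and GluK5 (*Grik4* and *Grik5*) need one of the former to reach the membrane as a working channel. NETO1 and NETO2 are transmembrane CUB-domain proteins that join the receptor and slow its kinetics. In the hippocampus, kainate receptors are best known from the mossy fibre synapse, where dentate granule cells contact CA3 pyramidal cells. C1QL2 and C1QL3 are released from mossy fibres and bind neurexin 3 on the presynaptic side and kainate receptor subunits on the postsynaptic side, and C1QL proteins also bind the adhesion receptor BAI3, encoded by *Adgrb3*.

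The sequence before the annotated start is shown for *C1ql2* and *Grik4*, which differed most between the tissues, and for *Grik3*, the gene of the family that was lowest in hippocampus relative to cortex. RefSeq windows (GRCm38.p6) of 250 bases before the transcription start were found for 7 of the 9 genes, and none was found for *Grik1* and *Neto1*. Each stretch is written 5′ to 3′ on the gene's own strand and ends before the start given by both RefSeq and GENCODE M21, which placed the start of *Grik4* 122 bases further upstream. Capitals mark the GC box, GGGCGG on either strand. *C1ql2* lies on the plus strand (chr1:120340332-120340581), *Grik4* on the minus strand (chr9:42944494-42944621) and *Grik3* on the plus strand (chr4:125490446-125490695).
C1ql2: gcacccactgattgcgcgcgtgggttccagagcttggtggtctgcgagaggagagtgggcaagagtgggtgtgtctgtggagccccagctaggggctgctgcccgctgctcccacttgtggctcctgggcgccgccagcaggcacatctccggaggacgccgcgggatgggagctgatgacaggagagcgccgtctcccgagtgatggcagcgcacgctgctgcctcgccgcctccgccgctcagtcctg
Grik4: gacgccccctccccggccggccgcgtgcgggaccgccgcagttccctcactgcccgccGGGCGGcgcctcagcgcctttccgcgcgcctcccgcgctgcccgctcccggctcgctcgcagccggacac
Grik3: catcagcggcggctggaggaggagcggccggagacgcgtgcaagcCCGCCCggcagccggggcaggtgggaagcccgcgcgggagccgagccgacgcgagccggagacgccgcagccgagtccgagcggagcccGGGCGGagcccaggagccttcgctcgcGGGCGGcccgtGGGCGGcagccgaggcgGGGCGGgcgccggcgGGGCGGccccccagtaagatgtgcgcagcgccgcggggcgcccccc
The *Grik3* window held 6 GC boxes, the *Grik4* window 1, at position -192 from the RefSeq start, and the *C1ql2* window none. In all, 32.7% of 32851 RefSeq windows of 250 bases held the motif. The windows of *Grik5*, *C1ql3* and the upstream start of *Neto2* held 2 each. The other motifs searched on both strands were absent from the windows of all 7 genes, namely the E-boxes CAGATG (in 14.4% of all windows) and CAGCTG (13.0%), the cAMP response element TGACGTCA (1.55%) and the TATA box TATAAA (12.4%). Over the full RefSeq windows of 250 bases, G and C made up 68.8% for *C1ql2*, 69.6% for *Grik4* and 82.0% for *Grik3*. The *Grik4* window ran 122 bases past the GENCODE start, so its value is not that of the shorter stretch shown.

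The positions of 8 of the genes in GENCODE M21 for GRCm38 were chr16:87895900-88290265 for *Grik1*, chr10:49094833-49788766 for *Grik2*, chr4:125490700-125714173 for *Grik3*, chr9:42518135-42944493 for *Grik4*, chr7:25009849-25072346 for *Grik5*, chr8:85636588-85700924 for *Neto2*, chr1:120340582-120343174 for *C1ql2* and chr2:13003457-13011806 for *C1ql3*. Counts were given as a single number per gene, so exons and untranslated ends were not separated. Whether reads in introns were included was not tested. Of the stretches of 50 bases in their transcripts, between 0 and 0.403% also occurred in transcripts of another gene, and none was shared between 2 of the 9 genes. *C1ql3* shares 1547 exon bases with an opposite-strand gene, *Gm37811*, which had at most 19 counts in a library.

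The totals on genes ran from 14191093 to 16752326 counts per library. Every one of the 9 genes had counts in all 20 libraries, from 1 count for *C1ql2* in WT cortex of mouse 4 to 4535 counts for *Grik5* in Ube3aOE hippocampus of mouse 9. Some libraries stood apart in markers of other tissue. In cortex, the Ube3aOE libraries of mice 8 and 9 had a summed level of 8 neocortex markers of 2061 and 2089 CPM against 2494 to 2993 CPM in the other 8, and summed levels of 5 hippocampal field markers of 106 and 120.0 CPM against 39.6 to 77.0 CPM. In hippocampus, the neocortex sum was 1359 CPM in WT mouse 2 and 832 CPM in Ube3aOE mouse 9 against 459 to 597 CPM in the rest. Thalamus and habenula markers reached 405 CPM in WT mouse 4, 516 CPM in Ube3aOE mouse 7 and 939 CPM in Ube3aOE mouse 10 against 85.4 to 169.7 CPM in the rest, choroid plexus markers reached 1943 CPM in Ube3aOE mouse 7 and 337 CPM in Ube3aOE mouse 9, and striatum markers 530 CPM in Ube3aOE mouse 9. In 2 WT mice the sex-linked counts went against the labelled sex. Their part in the results was not tested, and the region, genotype and interaction tests of the 9 genes were also run without the 7 libraries that a marker rule picked out, namely those of mice 2, 4, 7, 9 and 10 in hippocampus and of mice 8 and 9 in cortex. The counts of the other gene lists were not.

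**Figure D1:**
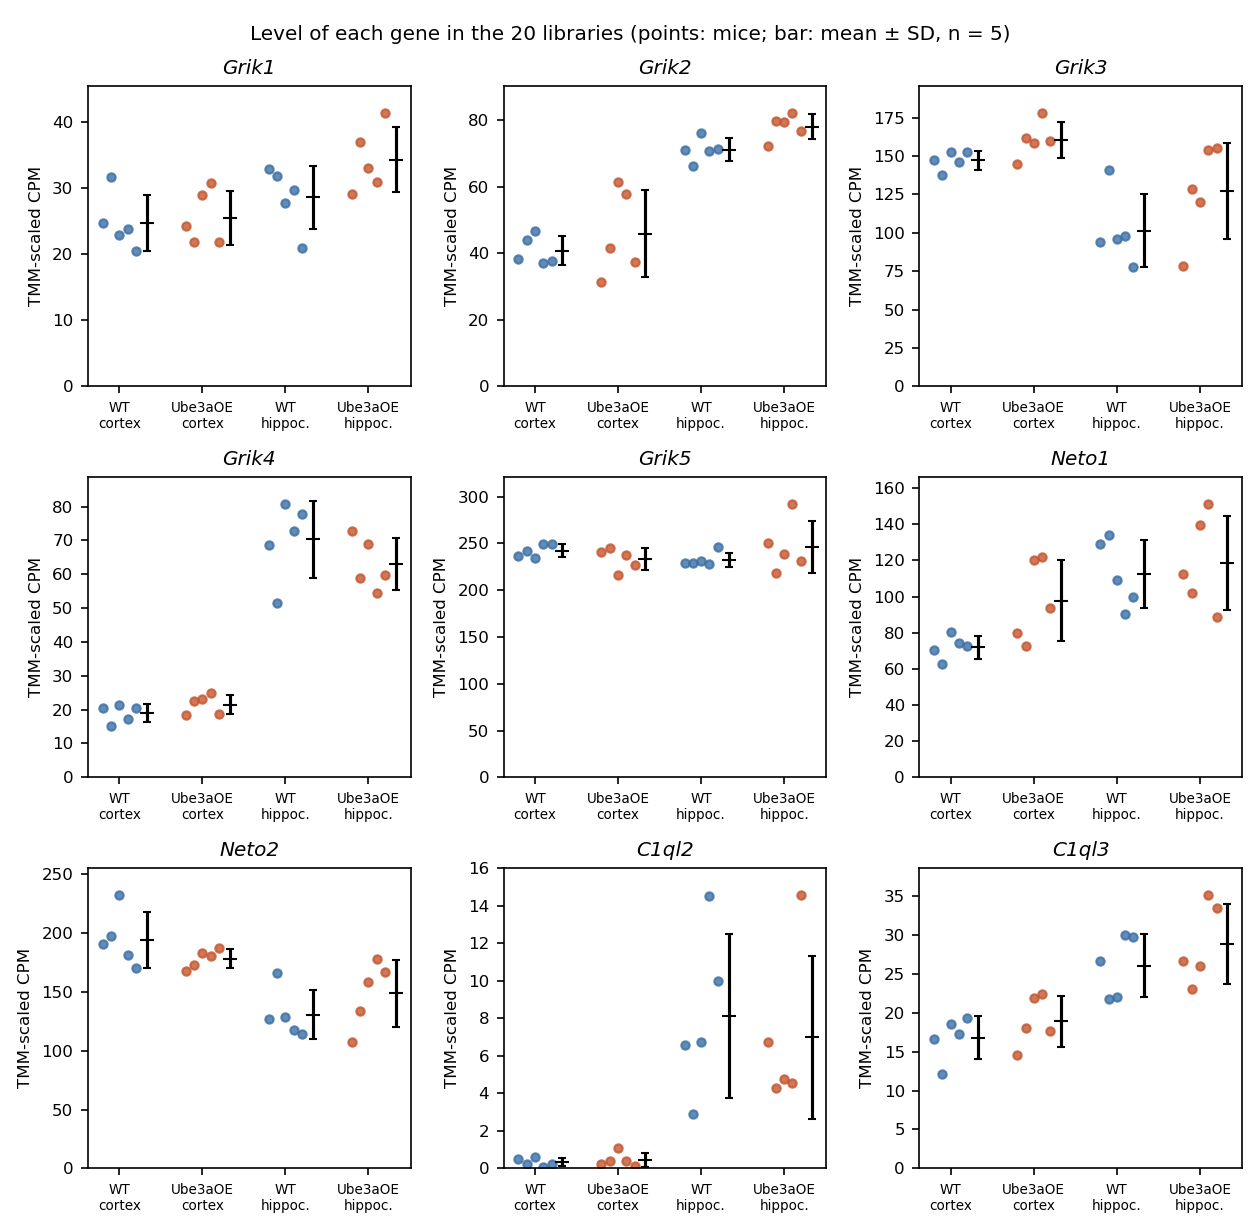
Level of each of the 9 genes (TMM-scaled CPM, linear axis from 0) in the 4 groups; points are the 5 libraries of a group in order of mouse number, and the bar beside them is the mean ± SD. Hippocampus and cortex points do not overlap for *Grik2*, *Grik4* and *C1ql2*, while *Grik5* lies between 216 and 292 CPM in all 20 libraries.

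Per kb of exon, *Grik5* was the highest of the 9 genes in both tissues, at 46.0 ± 1.96 CPM per kb in cortex and 46.3 ± 3.99 in hippocampus (SD, n = 10). *Neto2* followed in both, at 30.4 ± 3.03 in cortex and 22.8 ± 4.11 in hippocampus. In cortex the order then ran *Grik3* (17.2 ± 1.26 CPM per kb), *Neto1* (10.2 ± 2.48), *C1ql3* (7.04 ± 1.21), *Grik1* (3.73 ± 0.586), *Grik4* (3.39 ± 0.487), *Grik2* (3.27 ± 0.726) and *C1ql2* (0.192 ± 0.145). In hippocampus it ran *Neto1* (13.8 ± 2.59), *Grik3* (12.7 ± 3.29), *Grik4* (11.2 ± 1.67), *C1ql3* (10.8 ± 1.82), *Grik2* (5.62 ± 0.379), *Grik1* (4.67 ± 0.812) and *C1ql2* (3.78 ± 2.08). These orders rest on the length of all annotated exons, which was 6721 bases for *Grik1* and 13246 for *Grik2*. Their longest transcripts were 3655 and 9427 bases, and the orders were not retaken with those lengths. Neighbours in these orders were not all distinct. In cortex, *Grik1* was above *Grik4* in 7 of 10 mice and *Grik4* above *Grik2* in 7 of 10, with overlapping ranges. In hippocampus, *Neto1* was above *Grik3* in 7 of 10 mice, *Grik3* above *Grik4* in 5 of 10, *Grik4* above *C1ql3* in 8 of 10 and *Grik1* above *C1ql2* in 7 of 10. *Grik5* was above *Neto2*, and *Neto2* above the next gene, in all 10 mice of both tissues.

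The first question was how the genes differ between the regions, which the study's samples are divided by. *C1ql2*, *Grik4*, *Grik2*, *C1ql3*, *Neto1* and *Grik1* were higher in hippocampus and *Grik3* and *Neto2* were lower, while *Grik5* did not pass the test (edgeR quasi-likelihood F test over 20 libraries, adjusted *P* under 0.05). So 8 of 9 genes were called, 6 higher and 2 lower. Of the 15661 genes tested, 50.9% were called, 25.3% as higher in hippocampus and 25.6% as lower. The median log2 fold change of the 9 genes was 0.46, beside -0.0053 over all genes tested. In whole tissue, a larger share of cells of a type and more RNA per cell cannot be told apart.

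*C1ql2*, the organizer made by dentate granule cells, had the largest difference of the 9. In hippocampus it was at 6.56, 2.89, 6.72, 14.5 and 9.99 CPM in WT mice 1 to 5 and at 6.73, 4.29, 4.79, 4.57 and 14.6 CPM in Ube3aOE mice 6 to 10. In cortex it was at 0.510, 0.224, 0.583, 0.0641 and 0.249 CPM in WT and at 0.254, 0.388, 1.07, 0.366 and 0.127 CPM in Ube3aOE mice. Every hippocampus library was above every cortex library. The log2 fold change was 4.27 (SE 0.40, 95% interval 3.44 to 5.11, adjusted *P* = 6.95e-08), but the cortex side rests on 1 to 18 counts per library against 47 to 253 in hippocampus, so the size of the fold is less certain than its direction. Within mice the ratio was at least 4.46 in each of the 10. The highest hippocampus values were in the libraries of mice 4 and 10, which also had high thalamus and habenula marker sums, although the library of mouse 7, with the sum next in size after that of mouse 10, had 4.29 CPM. The lowest was in mouse 2, the library with the highest neocortex sum and the lowest dentate granule marker sum (175 CPM against 222 to 326 in the other 9). Mice 4 and 10 were not high in dentate granule markers, with sums of 291 and 287 CPM. Mouse 6, with *C1ql2* at 6.73 CPM, had a sum of 324 CPM.

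*Grik4*, a high-affinity subunit, had the smallest *P* value of the 9. It was at 68.6, 51.6, 80.7, 72.8 and 77.9 CPM in hippocampus of WT mice 1 to 5 and at 72.9, 58.9, 68.9, 54.5 and 59.9 CPM in Ube3aOE mice 6 to 10. In cortex it was at 20.5, 15.0, 21.3, 17.4 and 20.6 CPM in WT and at 18.4, 22.4, 23.2, 24.8 and 18.8 CPM in Ube3aOE mice. The tissues did not overlap, with the ratio from 2.20 to 4.19 within mice. The log2 fold change was 1.72 (SE 0.087, 95% interval 1.54 to 1.90, adjusted *P* = 9.21e-11). The lowest hippocampus values, 51.6 CPM in mouse 2 and 54.5 CPM in mouse 9, were in the libraries with the lowest hippocampal field marker sums (279 and 267 CPM against 422 to 512 in the other 8). Among the other 8 the levels did not follow the sums. Mouse 10, at 59.9 CPM, had a sum of 481 CPM, and mouse 3, at 80.7 CPM, had 424 CPM. *Grik5*, the other high-affinity subunit, ran from 218 to 292 CPM in hippocampus and from 216 to 249 CPM in cortex, with a log2 fold change of 0.0089 (95% interval -0.080 to 0.098, adjusted *P* = 0.881), and was higher in hippocampus in 4 of 10 mice.

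Of the subunits that form channels on their own, *Grik2* was at 66.3 to 76.0 CPM in WT and 72.3 to 82.0 CPM in Ube3aOE hippocampus, and at 37.1 to 46.8 and 31.2 to 61.3 CPM in cortex. The tissues did not overlap, and the highest cortex values, 61.3 and 57.9 CPM, were in mice 8 and 9. Its log2 fold change was 0.78 (SE 0.093, adjusted *P* = 9.02e-07). *Grik1* was higher by 0.32 (SE 0.095, adjusted *P* = 0.00839) with overlapping ranges (20.8 to 41.3 CPM in hippocampus, 20.5 to 31.6 CPM in cortex), and the ratio within mice ran from 1.01 to 1.90. *Grik3* fell by 0.44 on the log2 scale (SE 0.11, adjusted *P* = 0.0022) and was lower in hippocampus in 9 of 10 mice. In hippocampus *Grik3* was at 94.4, 141, 95.7, 98.2 and 77.8 CPM in WT and at 78.6, 129, 119.9, 154 and 155 CPM in Ube3aOE mice, whereas all 10 cortex libraries lay between 138 and 178 CPM. Its coefficient of variation was 23.3% in WT and 24.6% in Ube3aOE hippocampus, beside 4.17% and 7.35% in cortex, a difference in spread that was not tested. The 4 highest hippocampus values were in mice 2, 7, 9 and 10, all libraries with markers of other tissue, whereas mouse 4, another such library, was at 98.2 CPM. Without the 7 libraries with such markers *Grik3* fell by 0.68 on the log2 scale (SE 0.087, adjusted *P* = 1.05e-05).

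The auxiliary subunits differed in opposite directions. *Neto1* was at 129, 134, 109, 90.1 and 100.004 CPM in WT hippocampus and at 112, 102, 139.7, 151 and 88.6 CPM in Ube3aOE hippocampus, and in cortex at 70.6, 62.5, 80.2, 74.1 and 72.8 CPM in WT and 80.1, 72.9, 120.2, 122 and 93.7 CPM in Ube3aOE mice. It was higher in hippocampus in 9 of 10 mice, with a log2 fold change of 0.46 (SE 0.11, adjusted *P* = 0.00215). *Neto2* was at 114 to 166 CPM in WT and 107 to 178 CPM in Ube3aOE hippocampus, against 170.1 to 232 and 167 to 188 CPM in cortex. It was lower in hippocampus in all 10 mice and fell by 0.42 on the log2 scale (SE 0.083, adjusted *P* = 0.000322). *C1ql3*, the organizer with the wider distribution, was at 21.7 to 30.1 CPM in WT and 23.1 to 35.1 CPM in Ube3aOE hippocampus and at 12.2 to 19.3 and 14.5 to 22.4 CPM in cortex. It was higher in hippocampus in all 10 mice, by 0.62 on the log2 scale (SE 0.10, adjusted *P* = 3.54e-05).

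**Figure D2:**
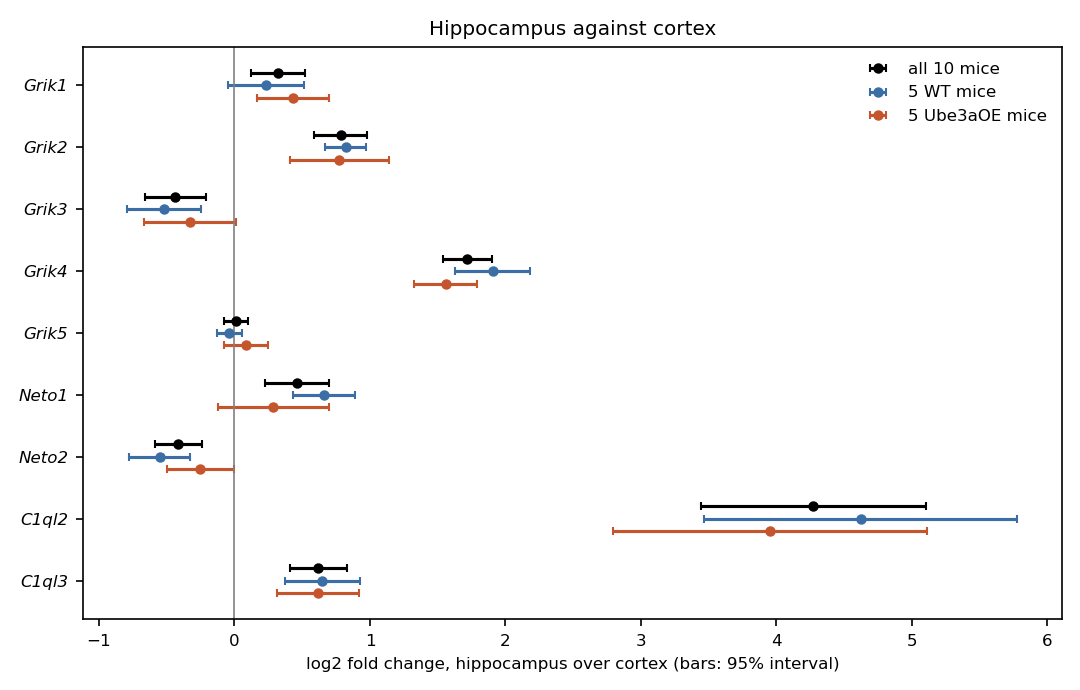
Log2 fold change of hippocampus over cortex for each gene (x axis; 0 is no difference) with its 95% interval, from all 10 mice (black), the 5 WT mice (blue) and the 5 Ube3aOE mice (orange). *C1ql2* and *Grik4* stand to the right of the other genes in all 3 fits, and the intervals of *Grik5* include 0.

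The region difference was also taken within each genotype, which split the mice into sets of 5. In WT mice 7 of the 9 genes were called, beside 38% of 15088 genes tested, and *Grik1* was not (log2 fold change 0.23, adjusted *P* = 0.180). In Ube3aOE mice 5 were called, beside 26.9% of 15147 genes tested, and *Grik3* (-0.33, adjusted *P* = 0.143), *Neto1* (0.29, adjusted *P* = 0.282) and *Neto2* (-0.25, adjusted *P* = 0.118) were not. Whether the region difference itself differed between the genotypes was tested by the interaction of genotype and region, which was called for none of the 9 genes and for 0% of 15661 genes by edgeR, with an unadjusted *P* under 0.05 for 590 genes and for none of the 9. DESeq2 called none either. This edgeR fit had no term for the mouse. With the mouse as a replicate block, edgeR gave 2 of the 9 an unadjusted *P* under 0.05 (smallest adjusted *P* 0.797). With single mice left out of the fit without the block, 2 of the 9 were under 0.05 unadjusted without mouse 2 or mouse 6. The number was 1 without mouse 7 and 0 without any other mouse. In the main fit the smallest *P* value of the 9 was that of *Grik4* (0.0608), whose genotype difference in hippocampus less that in cortex was -0.34 on the log2 scale (95% interval -0.69 to 0.017). With the 7 libraries with markers of other tissue left out, the same 8 genes passed the region test and none of the 9 passed the interaction test.

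The make-up of the kainate receptor transcripts differed between the regions. As shares of the summed CPM per kb of *Grik1* to *Grik5*, *Grik5* made up 57.5 ± 2.73% in hippocampus and 62.6 ± 2.64% in cortex, *Grik3* 15.7 ± 3.51% and 23.3 ± 1.31%, *Grik4* 14.0 ± 2.52% and 4.61 ± 0.586%, *Grik2* 6.99 ± 0.372% and 4.44 ± 0.936%, and *Grik1* 5.81 ± 0.990% and 5.07 ± 0.771% (SD, n = 10). The high-affinity subunits *Grik4* and *Grik5* together made up 71.5 ± 4.20% in hippocampus and 67.2 ± 2.22% in cortex. Their share was higher in hippocampus in 7 of 10 mice, by 4.28 percentage points on average (two-sided exact permutation of the tissues within mice, *P* = 0.0156, adjusted over 9 tests of 3 measures 0.0357). With the length of the longest transcript in place of all exons the difference was 2.23 percentage points and did not pass (exact permutation *P* = 0.0879), so the call rests on the gene lengths used. The sizes of the single shares rest on these lengths too. Across genotypes the share did not pass in either tissue (exact permutation *P* = 0.230 in hippocampus and 0.103 in cortex).

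The log2 ratio of *Neto1* to *Neto2*, in CPM per kb, was -0.72 ± 0.27 in hippocampus and -1.61 ± 0.36 in cortex (SD, n = 10). It was higher in hippocampus in 10 of 10 mice (exact permutation within mice, *P* = 0.00195, the smallest that 10 mice allow, adjusted 0.00879). The log2 ratio of *C1ql2* to *C1ql3* was -1.69 ± 0.66 in hippocampus and -5.55 ± 1.08 in cortex and was also higher in hippocampus in 10 of 10 mice (exact permutation *P* = 0.00195, adjusted 0.00879). *C1ql2* stayed below *C1ql3* in all 20 libraries. The nearest values were -0.71 in WT mouse 4 and -0.86 in Ube3aOE mouse 10, both in hippocampus.

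**Figure D3:**
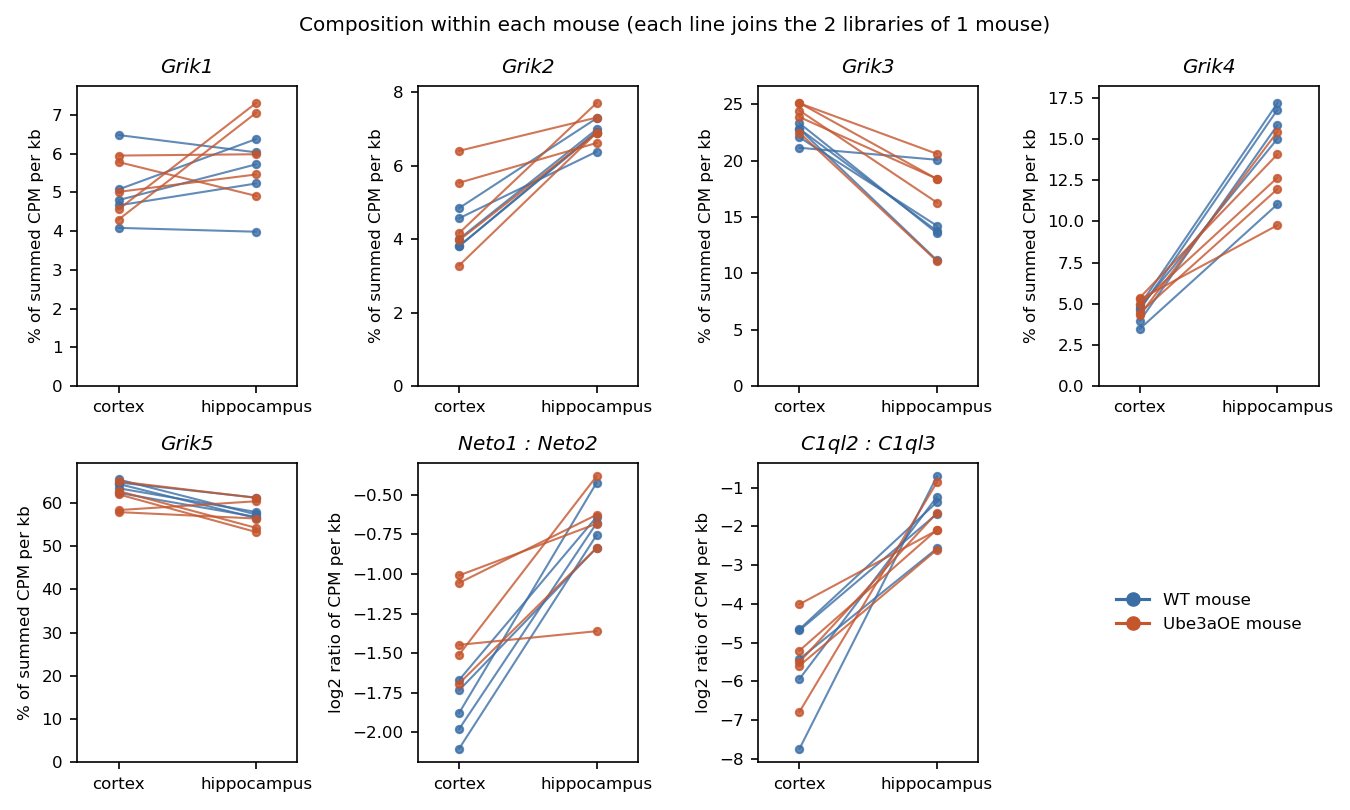
Share of each subunit in the summed CPM per kb of *Grik1* to *Grik5* (%, axes from 0), and log2 ratios of *Neto1* to *Neto2* and of *C1ql2* to *C1ql3*, in cortex and hippocampus; each line joins the libraries of 1 mouse (blue WT, orange Ube3aOE). The *Grik2* and *Grik4* shares and both ratios rise from cortex to hippocampus in all 10 mice, and the *Grik3* share falls in all 10.

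The second question was whether additional *Ube3a* changed these genes. None of the 9 was called in hippocampus and none of the 8 tested was called in cortex (edgeR, adjusted *P* under 0.05), where *C1ql2* did not pass the filter on low counts. Over all genes, 0.00657% of 15220 were called in hippocampus and 0.00669% of 14947 in cortex, which is 1 gene in each. An unadjusted *P* under 0.05 was found for 1 of 9 genes in hippocampus and 2 of 8 in cortex, beside 7.21% and 4.44% of all genes tested. DESeq2 called none of them either, with 1 and 2 of the genes under 0.05 unadjusted. The median log2 fold change of Ube3aOE over WT was 0.13 over the 9 genes in hippocampus and 0.15 over the 8 in cortex, beside 0.0023 and 0.0033 over all genes tested. Without the libraries with markers of other tissue these medians were 0.060 in hippocampus (2 Ube3aOE against 3 WT libraries) and -0.018 in cortex (3 against 5).

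In hippocampus the gene with *P* under 0.05 was *Grik2*, at 71.0 ± 3.45 CPM in WT and 78.0 ± 3.72 CPM in Ube3aOE mice (log2 fold change 0.13, 95% interval 0.014 to 0.25, unadjusted *P* = 0.0319, adjusted 0.668). Of the 5 Ube3aOE libraries, 4 were above all WT libraries. Without the 5 hippocampus libraries with markers of other tissue, 2 Ube3aOE and 3 WT libraries were left. The difference was then 0.060 (edgeR, unadjusted *P* = 0.500). No gene of the 9 had an unadjusted *P* under 0.05, which so few libraries make hard to reach. The part of the libraries left out was not tested. With all 20 libraries fitted together the *Grik2* difference was 0.14 (edgeR, unadjusted *P* = 0.306). *Grik4* was at 70.3 ± 11.4 and 63.0 ± 7.63 CPM (-0.16, 95% interval -0.41 to 0.094), *Grik1* at 28.6 ± 4.75 and 34.3 ± 4.92 CPM (0.26, interval -0.014 to 0.53) and *Grik3* at 101 ± 23.6 and 127 ± 31.3 CPM (0.32, interval -0.12 to 0.77). For *C1ql2* the interval ran from -1.26 to 0.81 around -0.22, which covers decreases as well as increases. For *Grik5* it ran from -0.076 to 0.24, for *Neto1* from -0.27 to 0.42, for *Neto2* from -0.12 to 0.49 and for *C1ql3* from -0.14 to 0.43.

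In cortex the genes with *P* under 0.05 were *Neto1* and *Grik3*. *Neto1* was at 72.1 ± 6.41 CPM in WT and 97.8 ± 22.6 CPM in Ube3aOE mice (log2 fold change 0.44, 95% interval 0.13 to 0.76, unadjusted *P* = 0.00922, adjusted 0.960), and 3 of 5 Ube3aOE libraries were above all WT libraries. The highest of these, 122 and 120.2 CPM, were those of mice 9 and 8, the cortex libraries with the lowest neocortex and highest hippocampal field marker sums. Without these libraries, which left 3 Ube3aOE against 5 WT, no gene of the 8 had an unadjusted edgeR *P* under 0.05. That threshold is harder to reach with fewer libraries, and the part of those left out was not tested. *Grik3* was at 147 ± 6.14 CPM in WT and 161 ± 11.8 CPM in Ube3aOE mice (0.13, 95% interval 0.0024 to 0.25, unadjusted *P* = 0.0464, adjusted 0.960). The intervals of the other genes ran from -0.22 to 0.33 for *Grik1*, -0.20 to 0.56 for *Grik2*, -0.062 to 0.43 for *Grik4*, -0.15 to 0.051 for *Grik5*, -0.28 to 0.040 for *Neto2* and -0.13 to 0.47 for *C1ql3*.

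Of the 3 shares and ratios tested, the ratio of *Neto1* to *Neto2* in cortex passed the exact test between the genotypes. Its log2 value was -1.88, -2.10, -1.98, -1.74 and -1.67 in WT mice 1 to 5 and -1.51, -1.69, -1.06, -1.01 and -1.45 in Ube3aOE mice 6 to 10. It was higher in Ube3aOE mice by 0.53 (4 of 5 above all WT; two-sided exact permutation over all assignments of 5 of 10 mice, *P* = 0.0159, adjusted over 9 tests 0.0357). The highest values were again those of mice 8 and 9, and without these libraries the difference was 0.32 with an exact permutation *P* of 0.0536 (3 against 5 libraries, smallest possible 0.0179). In hippocampus the difference was -0.11 (exact permutation *P* = 0.627). The interaction of genotype and region was called for the level of neither gene, and an interaction of the ratio itself was not tested. Outside these 9 tests and without adjustment, the exact permutation *P* between genotypes was 0.0159 for the level of *Grik2* and 0.0238 for the summed CPM per kb of *Grik1* to *Grik5* in hippocampus (77.7 ± 0.909 in WT and 83.4 ± 6.17 in Ube3aOE mice), and 0.0476 for the level of *Neto1* and 0.0317 for the share of *Grik3* in cortex (21.1 to 23.3% in WT and 22.5 to 25.1% in Ube3aOE mice). These are the only values under 0.05 from a larger set of such tests. The set held the levels of the 9 genes, each subunit share, the *Grik* and *Neto* sums and their ratio, in both tissues. With that many unadjusted tests some values under 0.05 arise by chance.

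**Figure D4:**
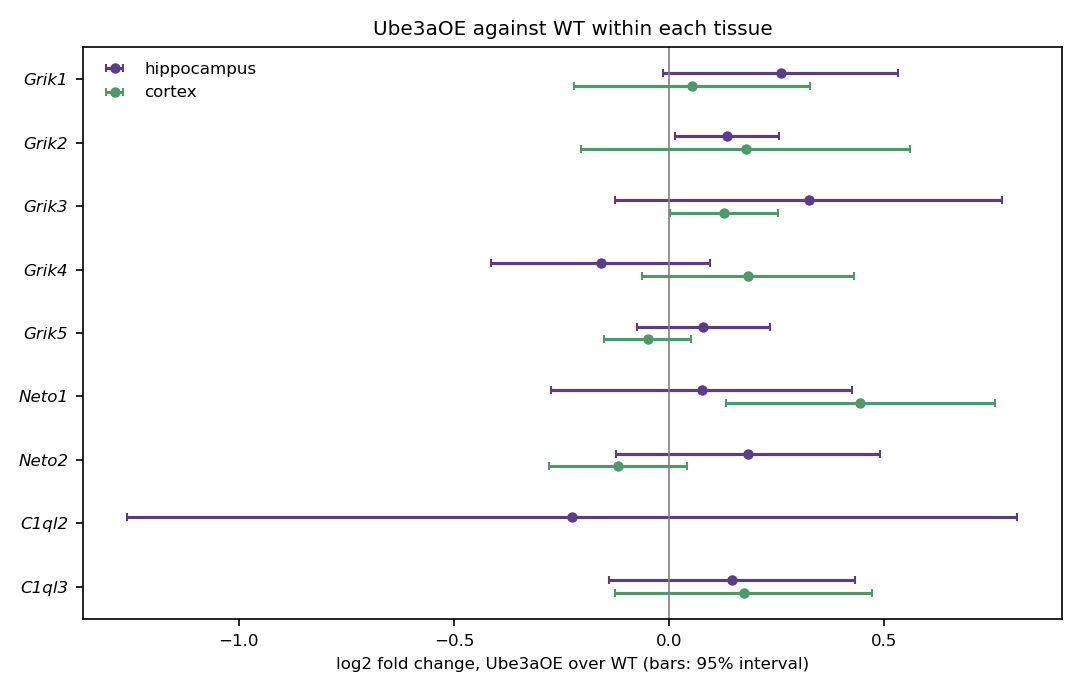
Log2 fold change of Ube3aOE over WT for each gene (x axis; 0 is no difference) in hippocampus (purple) and cortex (green), with 95% intervals from 5 mice against 5. *C1ql2* has no cortex value because it did not pass the filter there. The intervals that leave out 0 before adjustment are those of *Grik2* in hippocampus and of *Grik3* and *Neto1* in cortex.

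**Figure D5:**
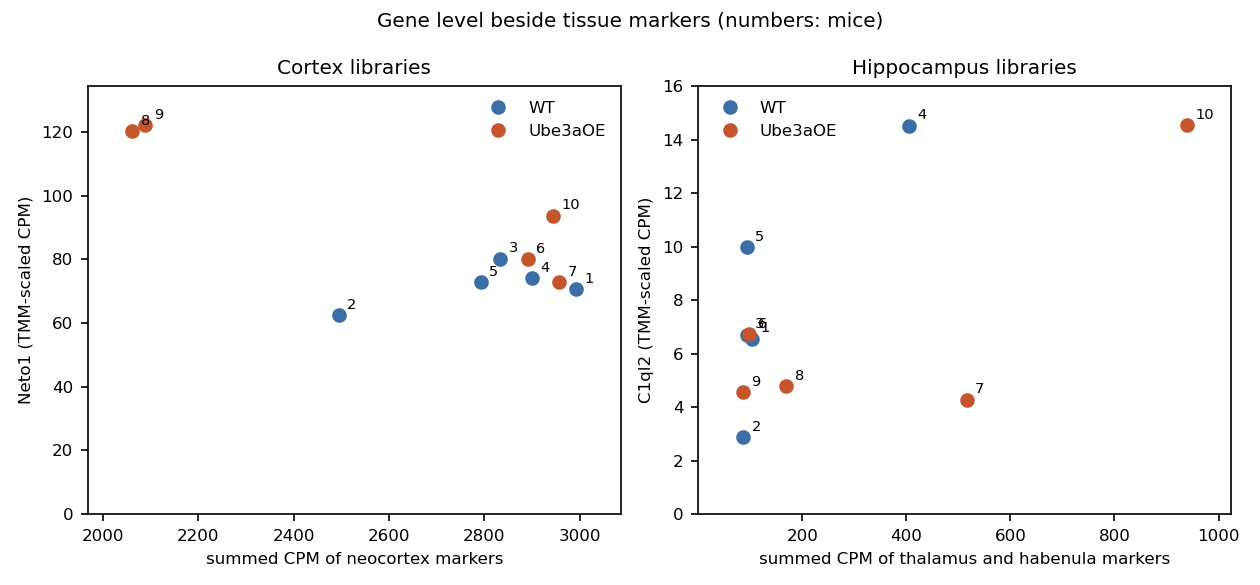
Left, *Neto1* (TMM-scaled CPM) against the summed CPM of 8 neocortex markers in the 10 cortex libraries. Right, *C1ql2* against the summed CPM of 7 thalamus and habenula markers in the 10 hippocampus libraries; blue is WT, orange Ube3aOE, and numbers are mice. Mice 8 and 9 stand apart in cortex, with the lowest marker sums and the highest *Neto1*; in hippocampus mice 4 and 10 are high in both measures and mouse 7 is high in the marker sum alone.

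Of 5 relatives and binding partners of the C1q-like proteins 4 were tested, of which 1 was higher in hippocampus, 1 was lower and 2 were not called, with a median log2 fold change of -0.044. The shares over all genes tested were 25.3% higher and 25.6% lower. *C1ql1*, known from climbing fibres of the cerebellum, was higher by 0.58 (SE 0.14, adjusted *P* = 0.00216), at 7.57 to 18.4 CPM in hippocampus against 6.03 to 12.4 CPM in cortex. *C1ql4* did not pass the filter and was at 0 in all 10 cortex libraries. *Adgrb3*, the receptor BAI3, was lower by 0.25 (-0.25, SE 0.046, adjusted *P* = 0.000131). *Nrxn2* was at -0.13 (adjusted *P* = 0.0575) and *Nrxn3*, the neurexin that mossy fibre C1q-like proteins bind, at 0.041 (adjusted *P* = 0.738). None of the 4 was called between genotypes in either tissue.

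Other genes of the pathway encode proteins that bind or modify kainate receptors. Of 15 such genes 1 was higher in hippocampus, 8 were lower and 6 were not called (median -0.14), beside 25.3% higher and 25.6% lower over all genes tested. The one that was higher was *Ctnnb1*, encoding β-catenin, with a log2 fold change of 0.40 (SE 0.037, adjusted *P* = 3.21e-08). *Dlg1*, a scaffold of the PSD-95 family, was at -0.50 (adjusted *P* = 1.19e-05), *Adar*, an RNA-editing enzyme, at -0.26 (adjusted *P* = 0.000129) and *Pick1*, a PDZ-domain protein, at -0.20 (adjusted *P* = 0.001003).

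Of 15 genes of the mossy fibre synapse 7 were higher in hippocampus, 5 lower and 3 not called, with a median of 0.14. Of all genes tested, 25.3% were higher and 25.6% lower. *Bdnf*, a neurotrophin, had a log2 fold change of 1.96 (SE 0.20, adjusted *P* = 1.70e-07) and *Kcna1*, a potassium channel, of 1.19 (SE 0.14, adjusted *P* = 6.60e-07). *Nectin3*, an adhesion molecule of CA3 dendrites that is also on the list of CA3 markers below, was higher by 0.53 (SE 0.077, adjusted *P* = 8.20e-06). *Slc30a3*, the zinc transporter of synaptic vesicles, was at -0.84 (SE 0.20, adjusted *P* = 0.00167). Its range in cortex was wide, from 22.0 to 67.7 CPM. None of the 15 was called between genotypes in either tissue.

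Markers of the cell types that make and receive mossy fibres were among those called, as were markers of other cell types and tissues. Of 7 dentate granule markers 6 were higher in hippocampus and none lower (median log2 fold change 1.19), and of 5 CA3 markers 4 were higher and none lower (0.53). Of 5 markers of the hippocampal field all were higher (2.36), and of 8 neocortex markers 6 were lower and none higher (-1.45). *Prox1* is on both the dentate granule and the hippocampal field list. Over all genes tested, 25.3% were called as higher and 25.6% as lower. Medians of markers elsewhere were 0.54 for CA1 pyramidal cells, 1.91 for Cajal-Retzius cells and 0.26 for the oligodendrocyte lineage. They were 1.75 for thalamus and habenula, 4.31 for choroid plexus, -0.17 for GABAergic interneurons and -0.062 for striatum. The summed dentate granule markers ran from 175 to 326 CPM in hippocampus and from 54.8 to 120.2 CPM in cortex. Their part in the differences of *C1ql2*, *Grik4* and *C1ql3* was not tested.

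To see which genes varied most like the organizers and *Grik4*, log2 CPM was compared over the 10 hippocampus libraries after the genotype means were taken out, for 15218 genes. The values are descriptions over libraries that differ in tissue make-up, without a test. *C1ql2* was most like *Paqr7* (Pearson r = 0.99), *Neu3* (0.99) and *Cth* (0.97), *Grik4* most like *Spg20*, *Mlc1* and *Fam167a* (0.97 each), and *C1ql3* most like *Lmnb2* (0.95), *Hrasls* (0.94) and *Rassf5* (0.93). *Mlc1*, which encodes a membrane protein of astrocytes, was at 165 to 237 CPM. *Paqr7* was at 46.8 to 80.7 CPM, *Neu3* at 2.03 to 5.45 CPM and *Cth* at 2.15 to 4.79 CPM. *C1ql2* itself was far highest in the libraries of mice 4 and 10 (14.5 and 14.6 CPM), and their weight in its correlations was not tested.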

How the data were processed

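The authors deposited 1 file per library with whole-number read counts per gene, not normalized, for 47729 genes and 5 lines of reads not counted on a gene, which were left out of totals and tests (reads counted on genes made up 69.7% to 81.2%). The submitters' processing notes name HISAT2 2.1.0, HTSeq 0.11.2, GRCm38 and mm10, and the labels a TruSeq stranded mRNA kit; the strand setting of the counting is not given in the sources used here. Reads aligned to more than 1 place were not counted, which bears on genes with close copies. Groups, mouse and labelled sex came from the sample labels.

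The main test was the robust quasi-likelihood F test of edgeR 4.0.16 in R 4.3.3, after filterByExpr and TMM scaling, and DESeq2 1.42.0 was an alternative, with Benjamini-Hochberg adjustment over all genes tested and a threshold of 0.05. The regions and the interaction were fitted over 20 libraries, the genotypes over the 10 of each tissue. Exact permutation tests (two-sided) compared the shares and ratios, within mice for the tissues (smallest *P* 0.00195) and over all assignments of 5 of 10 mice for the genotypes (smallest 0.00794). *P* values of the genotype tests rest on the spread between mice. Those of the region and interaction fits rest on the spread between libraries of a group, with no term for the mouse. Exact tests of the tissues rest on differences within mice. Intervals are 95%. Figures were drawn in Python 3.11.15 with matplotlib 3.10.9. The fits were also run on simulated data with independent libraries, the same dispersion for every gene and no mouse effect. These simulations therefore do not cover the pairing of libraries within mice or differences in tissue make-up.

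Each mouse gave both a cortex and a hippocampus library, which share its number in the labels. As a check of this pairing, deviations from the group means in log2 CPM were correlated between both libraries of each animal over genes, with a median r of 0.215 (-0.037 to 0.248; 9 of 10 mice above 0.1). The study names no blocked fit, so the mouse was a block in an alternative.

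The 9 genes, the lists and the tests were chosen with earlier results of these data known. Besides the 9, the text names 5 C1q-like relatives and partners (1 further gene is not reported here), the 4 genes with the smallest region *P* of the lists of kainate receptor interactors and of mossy fibre genes, and the 3 genes most like *C1ql2*, *Grik4* and *C1ql3* in hippocampus. Lists were written from general knowledge and matched to GENCODE M21 by symbol. Markers of GABAergic interneurons (3 of 10 higher in hippocampus, 2 lower), Cajal-Retzius cells (3 of 5 higher), the oligodendrocyte lineage (4 of 7 higher), CA1 pyramidal cells (3 of 5 higher, 1 lower), choroid plexus (3 of 4 higher), thalamus and habenula (4 of 5 higher) and striatum (2 of 7 higher, 2 lower) were counted in the same way. Libraries with markers of other tissue were, in hippocampus, those with a neocortex, thalamus, striatum or choroid plexus sum over 2 times the median of the tissue and 100 CPM above it and, in cortex, those with a neocortex sum under 0.8 of the median; this rule was chosen after the data were seen.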

Additional observations from a re-analysis of the deposited data

Results flagged for a closer look

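Each level of the 9 genes and each of the 3 shares and ratios was compared with the other libraries of its group of 5 by the gap to the nearest value over the range of the group. Of 48 such groups 4 held a value past the critical ratio of 0.71, where about 1 in 20 would be by chance. *Grik5* was at 246 CPM in WT hippocampus of mouse 5, against 228 to 231 CPM in the other 4 libraries. *Neto2* was at 166 CPM in WT hippocampus of mouse 2, the library with the highest neocortex marker sum of that tissue, against 114 to 128 CPM. *C1ql2* was at 1.07 CPM (18 counts) in Ube3aOE cortex of mouse 8, a library with a low neocortex and a high hippocampal field marker sum, against 0.127 to 0.388 CPM. *C1ql2* was at 14.6 CPM in Ube3aOE hippocampus of mouse 10, the library with the highest thalamus and habenula marker sum, against 4.29 to 6.73 CPM. The part of these markers in the values was not tested.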

How the results depend on the processing

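The region test called the same 8 genes with DESeq2, RLE factors, no filter on low counts, the mouse as a replicate block (8 genes; 8737 genes over all, against 7973), each mouse left out (8 in every case) and without the 7 libraries with markers of other tissue. It called 5 in the Ube3aOE libraries alone. No genotype or interaction test called any of the 9 under any alternative run, the replicate block on the pairing of tissues included (0 genes). In cortex, DESeq2 called 5 genes over all against 1.

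The difference in the *Grik4* and *Grik5* share was 2.23 percentage points with the longest transcript length. Without the 6 mice of libraries with markers of other tissue it was 6.88 percentage points, the *Neto1* to *Neto2* ratio differed by 1.23 and the *C1ql2* to *C1ql3* ratio by 3.71, with an exact permutation *P* of 0.125 each, the smallest that 4 mice allow. Without the block on the mouse these 3 calls kept their side of the threshold. Between genotypes, leaving out 1 mouse moved the share in cortex from -3.14 to -1.63 percentage points, past the threshold without mouse 6 alone, the *Neto1* to *Neto2* ratio in hippocampus from -0.21 to 0.035 and the *C1ql2* to *C1ql3* ratio in cortex from -0.24 to 0.61. Without the libraries with markers of other tissue these ratios were 0.077 and -0.14, and the *Neto1* to *Neto2* ratio in cortex was 0.32.

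Differences that were never called changed sign. *Grik5* between regions was -0.040 in WT libraries alone and -0.011 to 0.038 with 1 mouse left out. With labelled sex as a covariate, *Neto1* in hippocampus was -0.010 and *Grik1* in cortex -0.014 between genotypes. This covariate is doubtful, since the sex-linked counts of 2 WT mice went against their labels. Without mice 8 and 9 in cortex, *Grik1* was -0.13, *Grik2* -0.15 and *C1ql3* -0.0078. With 1 mouse left out, the genotype difference of *Neto1* in hippocampus ran from -0.022 to 0.17, of *C1ql2* in hippocampus from -0.68 to 0.091 and of *Grik1* in cortex from -0.026 to 0.15, and the interaction ran from -0.12 to 0.083 for *Grik2*, from -1.35 to 0.091 for *C1ql2* and from -0.12 to 0.070 for *C1ql3*. Without the 7 libraries the interaction was 0.22 for *Grik2* and 0.025 for *C1ql3*. The cause was not tested. The depth limits *C1ql2* in cortex, with 1 to 18 counts per library.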
